A study of Ovis aries with 9 samples.

Results

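The assembled intergenic long non-coding RNAs (lncRNAs) of ovine granulosa cells (GCs) were described at 3 levels of glucose. Members were the assembled transcripts whose name is LINC followed by a number, which is how the deposited table names lncRNAs lying between annotated genes, with LINC2820, LINC8770, LINC7077 and LINC2370 left out. This gave 9424 of 60784 transcripts (15.5%), in 7588 assembled genes. GCs, the somatic cells that surround and feed the oocyte, were taken from follicles of 3 to 5 mm of Thin-tailed Han ewes aged 1 year or somewhat more. All cultures were kept for 8 h without glucose and serum. Glucose was then absent for 24 h in the control group (CON, 0 mM), or was given at 8.4 mM in the LOW group and at 33.6 mM in the HIGH group, and each group had 3 libraries. The follicle suspensions were pooled before plating and no label ties a library to one ewe, so p-values measure only the spread between these cultures.

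Long non-coding RNAs are transcribed and processed much like messenger RNAs but hold no recognised open reading frame, and the intergenic ones do not overlap a protein-coding gene. Known examples act in the nucleus on chromatin or on transcription of neighbouring genes, or in the cytoplasm by binding proteins or microRNAs. They are known for low levels and for strong dependence on cell type, and in the follicle several have been tied to GC growth and death.

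Levels are given as FPKM, a fragment count divided by transcript length and by library depth, which allows comparison between transcripts of different length. An FPKM of 1 stood for 48.0 to 71.3 fragments per kilobase over the 9 libraries, so a member at 0.1 rests on 4.80 to 7.13 fragments per kilobase. Of 10 granulosa markers 7 were in the table, led by CYP11A1, the side-chain cleavage enzyme of steroid synthesis, at 135 to 198 FPKM, while the FSH receptor gene FSHR reached only 0.218 to 0.564. All 7 markers of stroma and smooth muscle were present, and their summed level was 2825 to 4474 FPKM, led by TAGLN (926 to 2771). Endothelial markers summed to 0.120 or less, with CDH5 listed at 0 in every library, and theca markers to 0.412 or less. Of 4 blood and immune markers 3 were in the table, and they summed to 14.2 to 20.4 FPKM. CD68 had 7.45 to 13.1 and CD14 6.15 to 7.89, while PTPRC had 0.00936 to 0.697. In such bulk samples fewer cells of a type and less RNA per cell cannot be told apart. The part of these other cells in the members' values was not tested.

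Most members were present at very low levels. The median member had a mean FPKM of 0.180 over the 9 libraries, 92.8% had a mean below 1, and only 35 members reached 10 and 7 reached 100. Detection, meaning FPKM above 0, was widespread: 4065 members (43.1%) were detected in all 9 libraries, 632 in only 1 library and 5 in none. Members were assembled from the reads of these libraries, so few could be undetected throughout. The 5 members listed at 0 throughout, named here after their values were seen, were LINC5487, LINC5499, LINC6360, LINC8400 and LINC1686, and each belongs to an assembled gene with other transcripts.

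Levels and detection differed more between the libraries of CON than between the groups. In CON 7810, 7156 and 6049 members were detected, in LOW 6828, 6913 and 6476, and in HIGH 7358, 7086 and 6632. The groups overlapped, with 7005 ± 890.2, 6739 ± 232 and 7025 ± 367 members (SD, n = 3), and an exact permutation test over 280 assignments gave p = 0.804. The median FPKM over all members was 0.283, 0.165 and 0.0704 in CON, 0.170, 0.146 and 0.139 in LOW, and 0.278, 0.226 and 0.166 in HIGH. CON replicate 1 was thus the highest and CON replicate 3 the lowest of the 9 libraries in both measures. On the log2(FPKM + 0.1) scale, after libraries were brought to a common level, the medians were -1.99 ± 0.54 in CON, -1.96 ± 0.07 in LOW and -1.64 ± 0.25 in HIGH (SD, n = 3), a range that did not pass the exact permutation test (p = 0.471). Across the 9 libraries the number of detected members had a Pearson r of 0.626 with sequencing depth (exact permutation p = 0.0706, 0.141 adjusted over 2 relations) and a Spearman rho of 0.733 (exact permutation p = 0.0311, adjusted 0.0622). Without CON replicates 1 and 2, the libraries farthest from the median depth, r was 0.269, so the relation rests on those libraries.

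**Figure D1:**
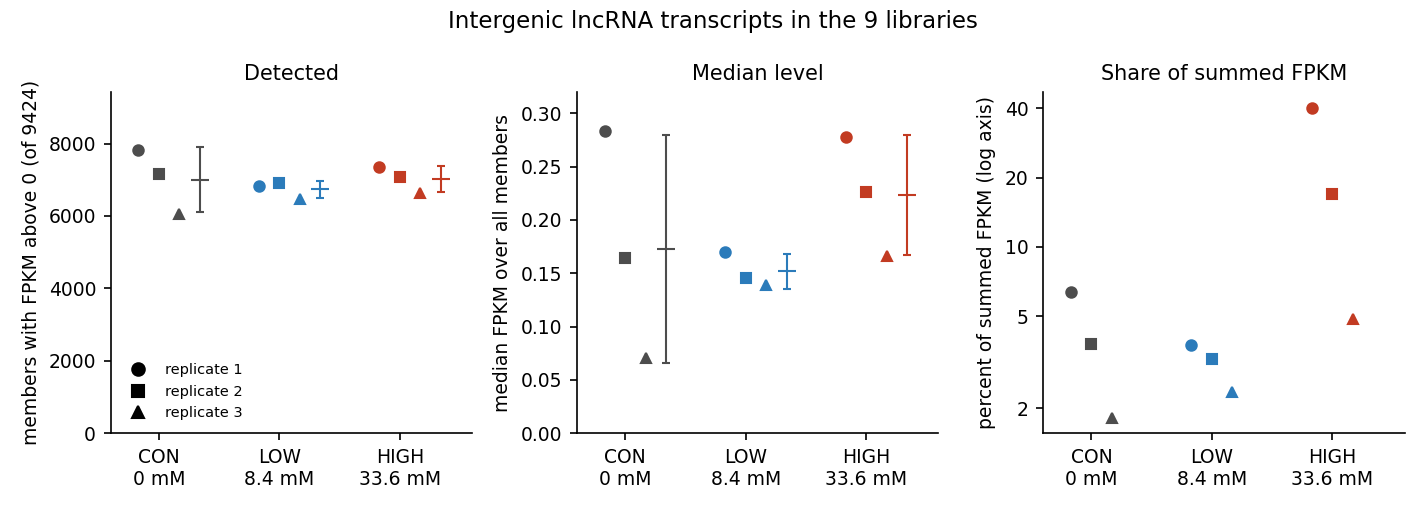
Detected members (left, count of 9424), median FPKM over all members (middle) and the members' percentage of all summed FPKM (right, log axis) in each library by glucose group, with replicates by symbol and, in the left and middle panels, mean and SD (n = 3) beside them. CON spreads from 6049 to 7810 detected members and covers the values of LOW and HIGH, while the share in HIGH reaches 40.2%. The share uses FPKM as deposited, before genes were brought to the same library factor.

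A pair of very abundant members set the members' share of all FPKM. The share was 6.39%, 3.79% and 1.82% in CON, 3.76%, 3.28% and 2.34% in LOW, and 40.2%, 16.9% and 4.87% in HIGH. The summed FPKM are as deposited, so Ensembl genes without a symbol enter on another library factor than the rest. The ratio of the 2 factors ran from 5.55 in LOW replicate 3 to 13.3 in CON replicate 1. Shares are therefore not on a common scale between libraries, and the effect on them was not tested. HIGH held the 2 highest libraries, and its lowest lay below the highest of CON. Group means were 4.0 ± 2.29% in CON, 3.13 ± 0.721% in LOW and 20.7 ± 18.0% in HIGH (SD, n = 3; exact permutation p = 0.075). With 1 library left out the exact permutation p was 0.225 to 0.289 for any CON or LOW library, 0.0679 for HIGH replicate 1 or 2, and 0.025 for HIGH replicate 3. LINC4531 and LINC4598 held 80.6% to 98.4% of the members' summed FPKM. With both removed, a step chosen after seeing the data, the share was 0.549 ± 0.240%, 0.422 ± 0.0381% and 0.565 ± 0.0958% in CON, LOW and HIGH (SD, n = 3; exact permutation p = 0.536).

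LINC4531 (TCONS_00162495, chr22:2612210-2612699) and LINC4598 (TCONS_00165162, chr22:2612208-2612699) cover almost the same bases and belong to 2 assembled genes. The build of these coordinates is not given in the sources used here, so the sequence could not be read. What RNA this pair represents is therefore unresolved, and only the name in the deposited table makes them intergenic lncRNAs. Reads from the shared positions cannot be told apart, so each value is uncertain, and their ratio stayed between 2.45 and 3.32 over the 9 libraries. LINC4531 had FPKM of 35141, 28504 and 14755 in CON, 28057, 26633 and 18539 in LOW, and 277350, 121303 and 38351 in HIGH. LINC4598 had 10595, 8725 and 4946 in CON, 9008, 9188 and 6343 in LOW, and 101155, 42650 and 15634 in HIGH. All 3 HIGH libraries lay above all 6 others for both transcripts, but HIGH itself spanned more than the gap between groups. The log2 change from CON to HIGH was 2.21 (SE 0.64) for LINC4531 and 2.46 (SE 0.59) for LINC4598, with limma adjusted p-values of 0.760 and 0.641 over all transcripts tested. From LOW to HIGH the changes were 2.13 (SE 0.64) and 2.28 (SE 0.59), with limma adjusted p-values of 0.659 and 0.624. By DESeq2 on the deposited counts the adjusted p-values were 0.00293 and 0.000125 from CON and 0.00223 and 0.000236 from LOW. Of the 7 stromal markers, COL1A1, COL1A2, COL3A1 and MYH11 fell in the same order over the HIGH libraries as LINC4531, with 127, 76.5 and 37.1 FPKM for COL1A1. TAGLN (926, 1465 and 2024) and ACTA2 (707, 847 and 881) ran the other way and DCN neither way. The whole list summed to 2825 to 3753 in HIGH and 3318 to 4474 in the others, and its part in the result was not tested. The nearest named gene, ZWINT, which encodes a kinetochore protein, is 80.9 kb away and had 1.36 to 2.83 FPKM.

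The other 8 of the 10 most abundant members lay between 81.5 and 289 mean FPKM, and several varied little between libraries. LINC9082 on chromosome X, 188 kb from TAF9B, had FPKM of 285, 259 and 227 in CON, 265, 245 and 249 in LOW, and 242, 263 and 246 in HIGH. LINC4529, also near ZWINT at 89.9 kb, ranged from 203 to 262. Both had overlapping groups, with the highest library 1.26 and 1.29 times the lowest. LINC7588, 14.8 kb from B2M, the light chain of class I MHC molecules, had 248, 311 and 395 FPKM in CON, 287, 298 and 291 in LOW, and 213, 259 and 303 in HIGH. B2M itself had 871 to 2235 FPKM, with its lowest and highest values in the same libraries as LINC7588. LINC7987, which spans 49878 bases 21.6 kb from the histone deacetylase gene HDAC2, had 85.2, 87.4 and 88.9 FPKM in CON, 82.7, 84.5 and 84.3 in LOW, and 77.7, 75.9 and 66.8 in HIGH. Its 3 groups did not overlap as deposited, and the log2 change from CON to HIGH was -0.19 (SE 0.10; limma adjusted p = 0.760). Between CON and LOW the sign depended on the scaling, since the change was 0.05 once libraries were scaled, while every LOW library lay below every CON library in deposited FPKM.

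LINC7180, LINC5715 and LINC7480 had another profile, with their lowest values of CON and of HIGH in replicate 1 and the highest in replicate 3. LINC7180, 2.07 kb from the rod phosphodiesterase gene PDE6B, had 129, 243 and 341 FPKM in CON, 212, 240 and 250 in LOW, and 84.2, 162 and 252 in HIGH. PDE6B was listed between 0 and 0.0368. LINC5715, 2.83 kb from ZC3H10, had 93.9, 156 and 200 FPKM in CON, 138, 189 and 184 in LOW, and 81.0, 114 and 266 in HIGH. LINC7480, 9.89 kb from LRR1, had 43.7, 83.9 and 156 FPKM in CON, 73.5, 122 and 105 in LOW, and 40.4, 78.1 and 174 in HIGH. Groups overlapped for all 3 transcripts, and limma adjusted p-values were 0.761 or more.

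LINC4288 was low in the libraries where another transcript of its gene was high. It had 110, 129 and 160 FPKM in CON, 0.256, 132 and 120 in LOW, and 82.3, 1.25 and 124 in HIGH, with 2 libraries far below the rest. The second transcript of its gene, which the table gives no class, had 173 FPKM in LOW replicate 1 and 185 in HIGH replicate 2, against 71.5 to 102 in the other libraries. Their sum ran from 154 to 262 and showed no such drop. Opposite levels were also seen for LINC3022 and LINC3023, which share both ends (chr18:66456635-66461321) and a gene and were picked out after their values were seen. LINC3023 had 130, 113 and 29.5 FPKM in CON, 109, 109 and 115 in LOW, and 32.6, 12.3 and 13.9 in HIGH. LINC3022 had 4.78, 80.0 and 104 in CON, 28.8, 17.5 and 13.6 in LOW, and 66.4, 81.5 and 79.2 in HIGH. Where one was high the other was low in most libraries. The gene also holds transcripts of no class, such as TCONS_00109504 at 54.6 FPKM in CON replicate 1. The summed gene had 189, 194 and 134 FPKM in CON, 138, 126 and 129 in LOW, and 117, 93.8 and 93.2 in HIGH. Unlike that of LINC4288, this sum was lower in every HIGH library than in any other library, a description with no test. In all, 990 member genes held more than 1 member, and 857 members shared both ends with another. Over those 990 genes the median SD between replicates was 0.587 (log2) for the summed members and 0.778 for single members, and the sum had the lower SD in 723.

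**Figure D2:**
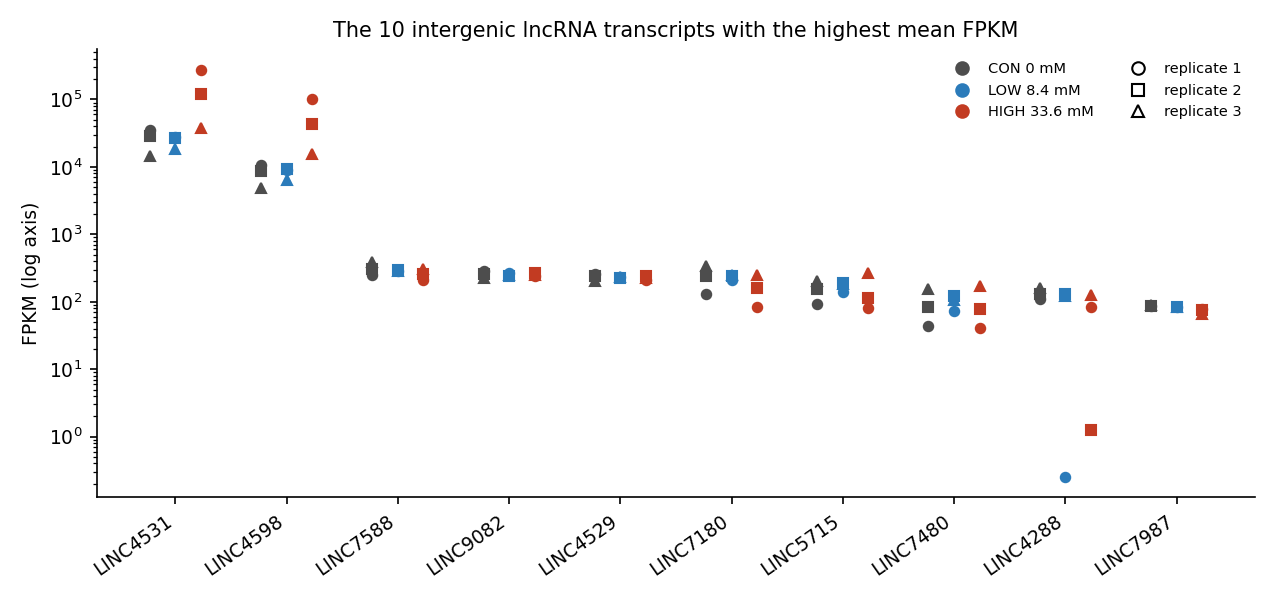
FPKM (log axis) of the 10 members with the highest mean, for each of the 9 libraries, coloured by glucose group with replicates by symbol. LINC4531 and LINC4598 stand far above the rest and highest in HIGH, while LINC4288 drops to 0.256 in LOW replicate 1 and 1.25 in HIGH replicate 2.

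Members were compared next with the other classes of transcript. Within each library, the median member lay below the median sense-overlapping lncRNA by 0.69 ± 0.04 and below the median mRNA by 2.30 ± 0.29 on the log2 scale (SD, n = 9 libraries), lower in 9 of 9 libraries for both (exact sign-flip permutation p = 0.00391, the smallest that 9 libraries allow). With 1 added in place of 0.1 the differences were -0.20 and -0.93. Against antisense lncRNAs the difference was -0.14 ± 0.24, lower in 6 of 9 libraries (exact sign-flip permutation p = 0.125). The share detected in all 9 libraries was 43.1% for members, 46.2% for antisense lncRNAs, 63.4% for sense-overlapping lncRNAs and 68.3% for mRNAs. The classes are not defined alike, since mRNAs are annotated and members were assembled from these reads. Of 15710 mRNAs 1975 were never detected, against 5 of 9424 members. The spread between replicates at a given level was also described, with no test. Among members with a mean FPKM of 1 to 10 the median SD within groups was 0.700 (log2), against 0.263 for mRNAs of that level, and from 10 upward it was 0.524 against 0.197.

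Distance to the nearest named gene was measured for 8874 members, and the sequences of the other 550 carried no named gene. Named genes were annotated genes with a symbol, without small RNAs. Annotated genes without a symbol were not counted, so a member far from a named gene may lie beside one of those. The median distance was 45.6 kb, with quartiles of 10.4 and 171 kb and a maximum of 2881 kb. In all, 1487 members (16.8%) lay within 5 kb, 604 of them within 1 kb, and 3128 (35.2%) lay over 100 kb away. None overlapped a named gene. Members within 1 kb lay beside genes that mostly had FPKM of 1 or more (91.4%, against 64.4% of all named genes), a share that was 69.2% for the genes nearest to members over 100 kb away. Members were set beside nearest named genes only if the member entered the limma test and the gene had a mean FPKM of 1 or more. Both limits narrow the range of levels, and the relation over all members was not tested. Among the members kept, levels were only weakly related to those of the gene, with Spearman rho of 0.156 within 1 kb (n = 471) and 0.0609 over 100 kb (n = 1576). For the changes between groups, rho was 0.107 to 0.138 within 1 kb and 0.0537 to 0.0961 over 100 kb, and members and genes were measured in the same libraries.

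Members far from named genes had lower levels, and their detection was described by distance. Of members within 1 kb, 55.5% were detected in all 9 libraries, and this share was 44.7% at 10 to 50 kb, 37.0% at 100 to 500 kb and 26.7% over 500 kb. Members within 5 kb of a named gene had a higher median than those over 100 kb away by 0.42 ± 0.33 on the log2 scale (SD, n = 9 libraries; higher in 7 of 9; exact sign-flip permutation p = 0.0156), and by 0.0875 with 1 added in place of 0.1. The difference was -0.03, 0.48 and 1.01 in CON, 0.41, 0.60 and 0.58 in LOW, and -0.07, 0.28 and 0.53 in HIGH. CON replicate 1 and HIGH replicate 1, which had the highest medians over all members, were thus the libraries without the gradient, and CON replicate 3, with the lowest median, had the steepest.

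The libraries parted mainly among members far from named genes. Within 1 kb the median FPKM ran only from 0.187 to 0.256 over all 9 libraries. Over 500 kb it was 0.290, 0.0921 and 0 in CON, 0.121, 0.0751 and 0.0648 in LOW, and 0.270, 0.180 and 0.0860 in HIGH. The share of members over 100 kb away that were detected was 81.9%, 70.0% and 51.7% in CON, 66.3%, 66.1% and 60.9% in LOW, and 76.0%, 70.0% and 62.6% in HIGH. Within 5 kb of a named gene it was 76.2% to 85.2% in every library. Far members were longer, with a median genomic span of 13483 bases over 500 kb against 4738 within 1 kb. In each of 3 span classes, under 2 kb, 2 to 10 kb and 10 kb or more, the share detected in all libraries was lower for far than for near members (21.6% and 36.4%, 49.7% and 67.2%, and 29.1% and 49.2%), a description with no test.

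**Figure D3:**
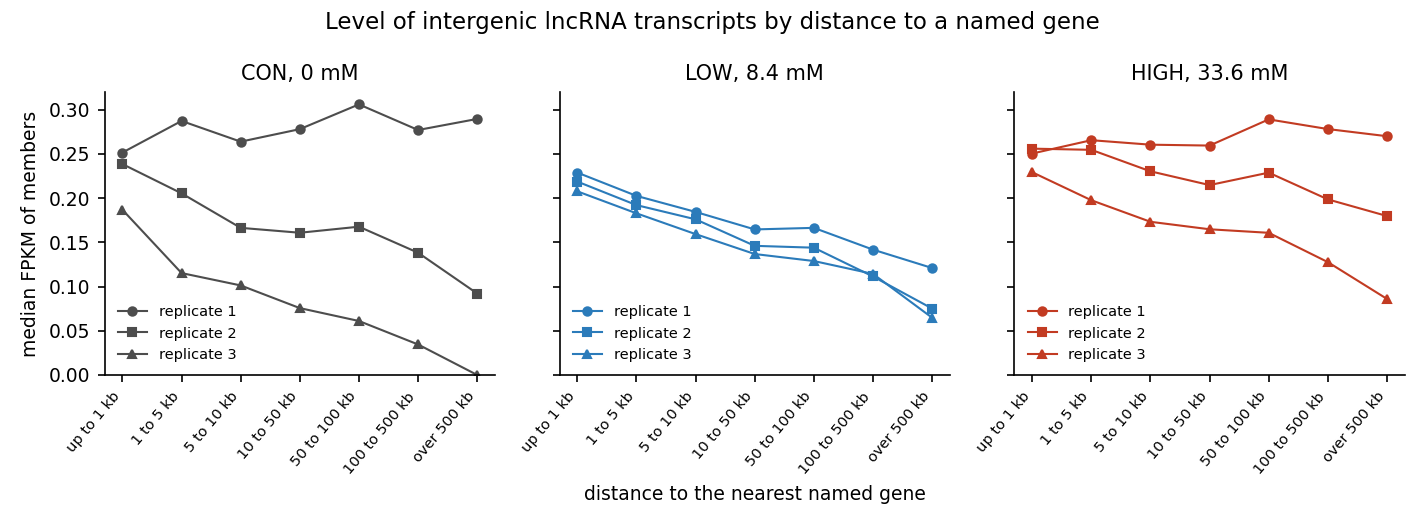
Median FPKM of members by distance to the nearest named gene, one line per library, in panels for CON, LOW and HIGH. Lines start close together at 0.187 to 0.256 within 1 kb and part with distance: over 500 kb CON replicate 1 is at 0.290 and CON replicate 3 at 0.

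Members were spread over all autosomes and chromosome X. Chromosomes 3, 1 and 2 held the most, with 871, 867 and 784, and chromosome X held 436. Per megabase up to the last transcript, chromosome 24 (5.40) and chromosome 19 (4.81) were the densest, and chromosomes 21 (2.18) and 23 (2.28) the sparsest. Relative to named genes the order changed: chromosome 10 had 105 members per 100 named genes and chromosome 11 had 27.0. On chromosome 24 the median distance to a named gene was 15.1 kb and on chromosome 9 it was 96.6 kb. Chromosome 9 also had few abundant members, with 1.50% at a mean FPKM of 1 or more, against 11.9% on chromosome 15 and 11.2% on chromosome 20.

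Across glucose groups the chromosomes were described without a test. The share of detected members on chromosome 1 was 72.5 ± 9.89% in CON, 68.4 ± 1.75% in LOW and 73.4 ± 4.55% in HIGH (SD, n = 3). On chromosome X it was 75.4 ± 12.5%, 69.8 ± 5.63% and 75.2 ± 8.15% (SD, n = 3). On each autosome and on chromosome X the means of LOW and HIGH lay within 1 SD of the mean of CON. Unplaced scaffolds formed an exception in level: 559 members on 284 scaffolds had a median of mean FPKM of 0.299, against 0.175 for placed members, and 15.4% reached a mean of 1, against 6.63%. Their median span was 1881 bases, against 6238 for placed members. The share of them detected was 82.8 ± 4.67% in CON, 77.2 ± 2.33% in LOW and 81.7 ± 2.74% in HIGH (SD, n = 3). Here the mean of LOW lay more than 1 SD below the mean of CON.

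**Figure D4:**
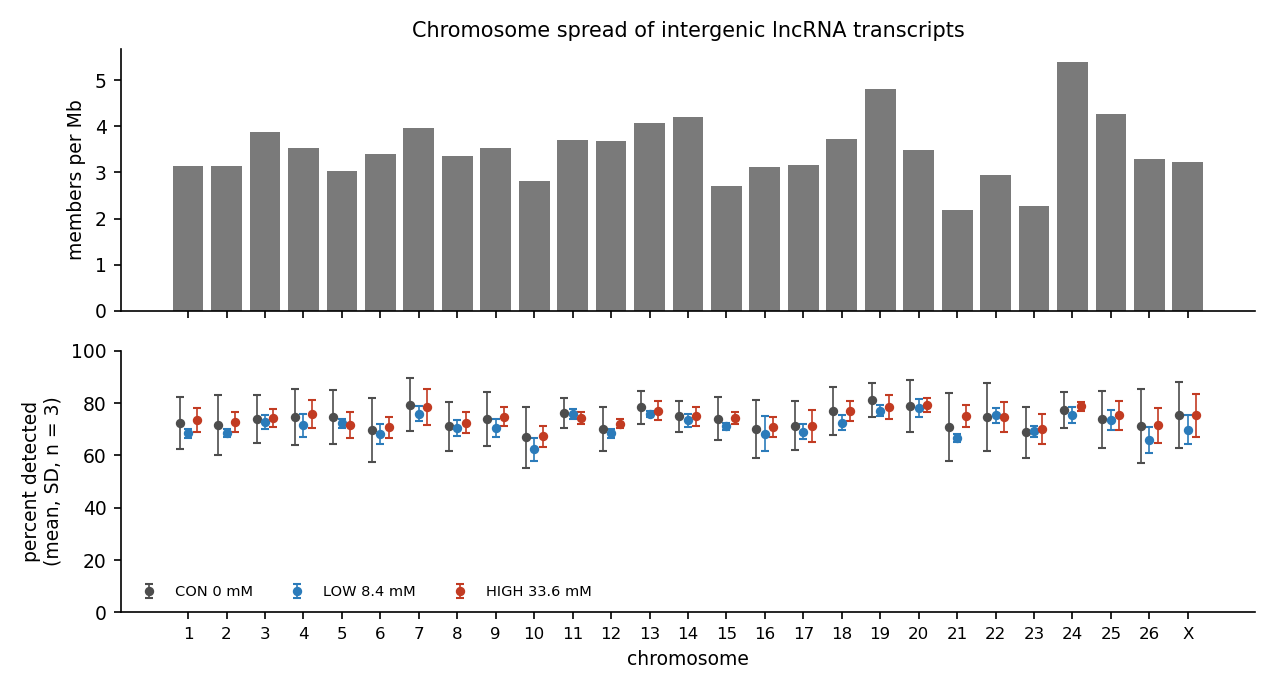
Members per megabase on each chromosome (top) and the percentage of a chromosome's members detected in CON, LOW and HIGH (bottom, mean and SD, n = 3). Chromosome 24 is the densest at 5.40 members per megabase, and the means of LOW and HIGH lie within the CON error bars on each chromosome shown.

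The comparison of glucose groups asked which members changed. Of 9424 members, 7261 passed the filter on low values (FPKM of 0.1 or more in 3 libraries) and entered a limma fit of all 38384 transcripts. Of these, 28 reached 0.1 in the libraries of 1 group only, 5 in CON, 4 in LOW and 19 in HIGH. Such a member had to differ between groups to be tested at all, so its p supports nothing. No member passed in any comparison (adjusted p below 0.05 and absolute log2 fold change above 1), which the choice of members itself fixes, because the 4 transcripts left out were those that did pass. Over all transcripts 0.0234% passed for CON and LOW, 0.0234% for CON and HIGH, and 0.0261% for LOW and HIGH. Just outside the choice, LINC2370, LINC2820, LINC7077 and LINC8770 had adjusted p-values of 0.0428, 0.0393, 0.0199 and 0.00201 by limma for CON and LOW. Just inside it, the members with the lowest limma adjusted p-values were LINC8979 and LINC7728 (both 0.449) for CON and LOW, and LINC4052 for CON and HIGH (0.0960) and for LOW and HIGH (0.105). By DESeq2 on the deposited counts, which are FPKM rescaled by genomic span and not numbers of reads, 153, 110 and 205 members passed for CON and LOW, CON and HIGH, and LOW and HIGH. These were 2.11%, 1.51% and 2.82% of the members tested, against 1.62%, 1.63% and 2.31% of all transcripts by DESeq2.

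At an unadjusted limma p below 0.05, 181 members (2.49%) differed between CON and LOW, 94 higher and 87 lower in LOW, against 2.78% of all transcripts (1.45% higher and 1.33% lower). Without scaling of libraries the split was 75 higher and 108 lower (2.52%, against 3.12% of all transcripts), and by DESeq2 it was 136 and 251 (5.33%, against 5.56%). The count was 286 without CON replicate 3, with 77 higher and 209 lower (4.03%, against 4.1% of all transcripts), and 267 without CON replicate 1, with 182 higher and 85 lower (3.94%, against 4.34%), so the split turned with the library left out. Between CON and HIGH 307 members (4.23%) differed, 222 higher and 85 lower in HIGH, against 6.09% of all transcripts (3.74% higher and 2.35% lower), and DESeq2 gave 232 and 175 (5.61%, against 10.9%). Here the count was 1340 without CON replicate 1 (19.8%, against 17.4% of all transcripts), of which 1230 were higher in HIGH, and 514 without HIGH replicate 3 (7.31%, against 10.2%). Between LOW and HIGH 400 members (5.51%) differed, 296 higher and 104 lower in HIGH, against 6.62% of all transcripts (4.32% higher and 2.3% lower), and 670 differed without HIGH replicate 3 (9.53%, against 11.9%). With all 9 libraries in the limma fit the members' share was below that of all transcripts in each comparison. Without CON replicate 1 the members' share was above it for CON and HIGH. Of the 181, 307 and 400 members, 9, 23 and 22 had entered the test through 1 group only, so their p supports nothing. HIGH was that group for 18 of the 23 and for 18 of the 22. In deposited FPKM, the groups did not overlap for 388 members between CON and LOW (5.34%, against 8.6% of all transcripts), 459 between CON and HIGH (6.32%, against 10.3%) and 1028 between LOW and HIGH (14.2%, against 15.2%).

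The median log2 change over the members was above 0 towards HIGH. It was 0.03 from CON to LOW, 0.33 from CON to HIGH and 0.30 from LOW to HIGH, against 0.03, 0.12 and 0.07 for all transcripts tested. With 1 added in place of 0.1 the members' medians were -0.01, 0.08 and 0.09, against 0.01, 0.05 and 0.03 for all transcripts. CON replicates 1 and 3 decided much of this, since the median from CON to HIGH was 0.05 without CON replicate 3 and 0.60 without CON replicate 1, and that from CON to LOW was -0.27 and 0.29. From LOW to HIGH it was 0.18 without HIGH replicate 1 and 0.43 without HIGH replicate 3. By distance, the median from CON to HIGH was 0.18 for members within 5 kb of a named gene and 0.41 for those over 100 kb away, with 64.1% and 74.4% above 0. From LOW to HIGH the near and far medians were 0.14 and 0.36, with 60.0% and 74.1% above 0. These are the members whose medians also parted most between replicates, and the difference between near and far was not tested.

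Among members whose groups did not overlap, those with the smallest p were of low level. LINC4052, 1.20 kb from ACVR1, a type I receptor for activins and BMPs, had FPKM of 0.0260, 0 and 0 in CON, 0.00602, 0.00790 and 0.00281 in LOW, and 0.517, 0.393 and 0.330 in HIGH. It reached 0.1 FPKM only in HIGH, and so entered the test only through that group. The log2 changes were 2.24 (SE 0.31) from CON and 2.27 (SE 0.31) from LOW, with limma adjusted p-values of 0.0960 and 0.105. ACVR1 had 7.92, 5.79 and 4.31 FPKM in CON, 5.83, 5.06 and 4.93 in LOW, and 7.40, 6.72 and 5.60 in HIGH. The 3 transcripts of the LINC4052 gene summed to 0.890, 0.509 and 0.151 in CON and 0.762, 0.845 and 0.543 in HIGH, so the gene as a whole was present in CON.

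LINC4157, 556 kb from IKZF2, the gene of a zinc finger factor of T cells, was listed at 0 in all CON and LOW libraries and at 0.872, 0.265 and 0.533 in HIGH (limma adjusted p = 0.167 and 0.155). It too entered the test only through HIGH. It shares its gene with another transcript, and their sum was above 0 in all 9 libraries. LINC7661, 452 kb from THBS1, which encodes the matrix protein thrombospondin 1, had 0.0602, 0.0272 and 0.126 FPKM in CON, 0.779, 0.583 and 0.239 in LOW, and 0.879, 1.08 and 0.792 in HIGH. Its log2 change was 1.89 (SE 0.41) from CON to LOW and 2.62 (SE 0.41) from CON to HIGH, with limma adjusted p-values of 0.752 and 0.166. Its gene of 12 transcripts summed to 3.59, 2.40 and 0.900 in CON and 3.80, 3.34 and 2.60 in HIGH, with overlapping groups.

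LINC139, 68.9 kb from the diphthamide synthesis gene DPH5, was low in LOW. It had 0.425, 0.313 and 0.143 FPKM in CON, 0.00796, 0.0212 and 0.00779 in LOW, and 0.674, 0.647 and 0.356 in HIGH. Its log2 change was -1.69 (SE 0.38) from CON to LOW and 2.51 (SE 0.38) from LOW to HIGH, with limma adjusted p-values of 0.795 and 0.134. The 2 transcripts of its gene summed to 0.742, 0.445 and 0.143 in CON, 0.409, 0.257 and 0.193 in LOW, and 0.674, 0.648 and 0.356 in HIGH, and for the gene CON and LOW overlapped. LINC2645, 992 kb from the cadherin gene CDH12, was listed at 0 in all LOW libraries and had 0.358, 0.221 and 0.155 in CON and 0.331, 0.157 and 0.347 in HIGH (limma adjusted p = 0.752 for CON and LOW). It is the single transcript of its gene.

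LINC7728 was the counterpart, with a high level in LOW alone. It lies 42.8 kb from ESR2, which encodes the estrogen receptor beta of GCs, and had 0.00848, 0 and 0 FPKM in CON, 0.411, 0.389 and 0.159 in LOW, and 0 in all HIGH libraries (limma adjusted p = 0.449 from CON and 0.271 to HIGH). It entered the test only through LOW. ESR2 had 2.31, 1.81 and 0.461 FPKM in CON, 1.39, 1.55 and 0.935 in LOW, and 2.07, 2.21 and 0.939 in HIGH, with overlapping groups. LINC8557, on an unplaced scaffold, had 0.218, 0.193 and 0.274 FPKM in CON, 0.615, 0.836 and 0.487 in LOW, and 0.0633, 0.0752 and 0.0787 in HIGH. Its groups stood in the order LOW, CON, HIGH without overlap, and the log2 change from LOW to HIGH was -2.13 (SE 0.30; limma adjusted p = 0.117). LINC8979, on another scaffold, was listed at 0 in all CON libraries and had 0.421, 0.478 and 0.278 in LOW and 0.160, 0.627 and 0.295 in HIGH (limma adjusted p = 0.449 for CON and LOW).

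LINC4875, 22.8 kb from PDZD9, had 2.10, 1.03 and 0.289 FPKM in CON, 1.24, 0.981 and 1.07 in LOW, and 0.00375, 0.00117 and 0.00330 in HIGH. All HIGH libraries were near 0, while CON spread widely. Its log2 change, which the added 0.1 makes smaller, was -3.22 (SE 0.54) from CON to HIGH and -3.59 (SE 0.54) from LOW to HIGH, with limma adjusted p-values of 0.230 and 0.134. It is the single transcript of its gene, and its adjusted p without CON replicate 3 was 0.0183 and 0.0155 by limma. With any other single library left out it did not pass. LINC4202, 0.772 kb from TINAGL1, which encodes a matrix protein, had 2.04, 9.55 and 4.69 FPKM in CON, 0.769, 0.915 and 1.36 in LOW, and 0.343, 0.466 and 0.482 in HIGH. Its groups did not overlap, and the log2 change from CON to HIGH was -3.08 (SE 0.51; limma adjusted p = 0.230, and 0.0343 without CON replicate 1). LINC4202 did not pass with any other single library left out. TINAGL1 had 76.9, 83.9 and 111 FPKM in CON, 61.7, 72.6 and 65.4 in LOW, and 53.2, 64.4 and 67.6 in HIGH, with CON above both other groups as well. LINC7005, 0.167 kb from EXOSC9, a subunit of the RNA exosome, had 0.414, 0.758 and 0.304 FPKM in CON, 0, 0 and 0.0629 in LOW, and 0 in all HIGH libraries (limma adjusted p = 0.473 for LOW and 0.199 for HIGH against CON). It entered the test only through CON. The 2 transcripts of its gene summed to 0.466, 0.758 and 0.633 in CON, 0.730, 0.264 and 0.777 in LOW, and 0.268, 0.226 and 0.162 in HIGH, and for the gene CON and LOW overlapped.

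**Figure D5:**
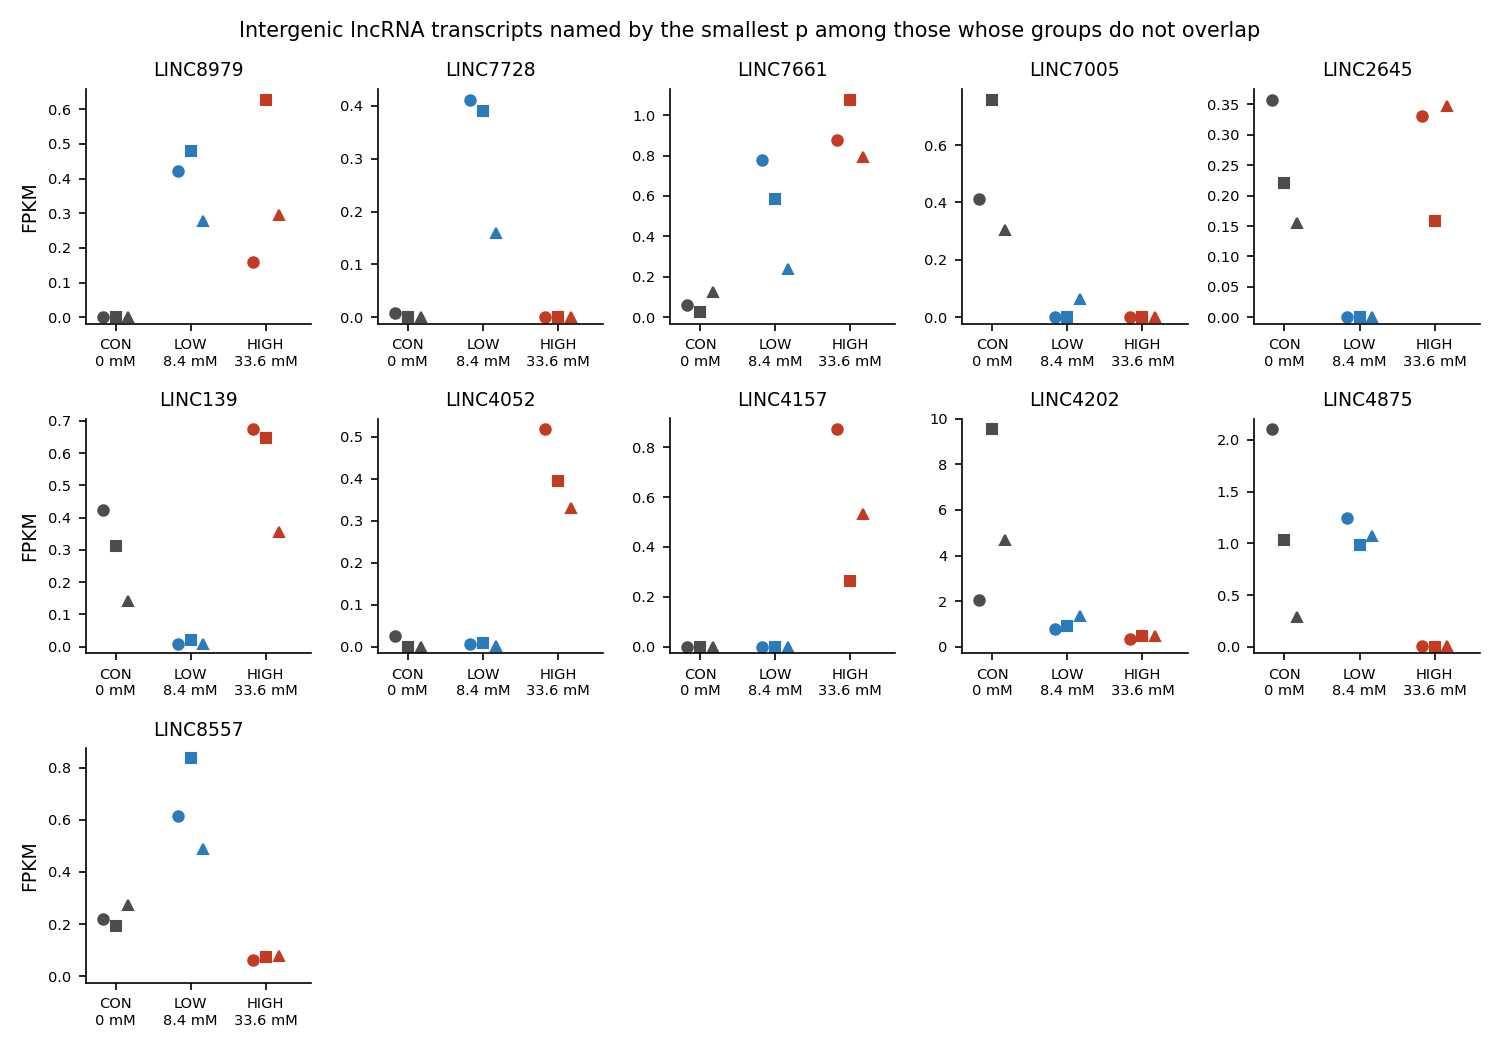
FPKM in each library of the 11 members with the smallest p among those whose groups do not overlap, with one panel per member, a separate vertical axis for each, and circles, squares and triangles for replicates 1, 2 and 3. LINC4052 and LINC4157 are high in HIGH alone, LINC7728 in LOW alone, and LINC4875 is near 0 in HIGH.

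Some members were above 0 in all libraries of one group and at 0 in all of another. From CON to LOW 41 went to 0 and 23 came up from 0 (0.435% and 0.244% of detected members, against 0.356% and 0.160% of all detected transcripts), from CON to HIGH 24 and 21 (0.255% and 0.223%, against 0.354% and 0.200%), and from LOW to HIGH 35 and 61 (0.372% and 0.648%, against 0.251% and 0.391%). In 56 of these 205 cases the assembled gene as a whole was above 0 in all 3 libraries of the group where the member was at 0. In 139 cases the gene as a whole was at 0 there too, in all 3 libraries. LINC7076, 80.6 kb from the protocadherin gene PCDH7, was listed at 0 in CON and had 1.34, 0.375 and 1.64 FPKM in LOW and 0.503, 4.42 and 3.00 in HIGH (limma adjusted p = 0.757 and 0.247). Its gene of 13 transcripts, which also holds the omitted LINC7077, summed to 42.6, 25.4 and 8.26 in CON, 29.3, 24.4 and 24.4 in LOW, and 38.5, 32.8 and 26.2 in HIGH. LINC5645, 46.1 kb from the amino acid transporter gene SLC38A2, had 1.74, 1.28 and 1.85 FPKM in LOW and 0 in HIGH, but 0, 1.57 and 0 in CON, and its gene of 20 transcripts summed to 5.58 to 14.8. LINC5191, 48.9 kb from REEP3, had 1.02, 1.30 and 1.35 in LOW and 0 in HIGH, with 2.52, 0 and 0 in CON. In these 3 cases the gene was present in the group where the transcript was not.

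Other members at 0 in a whole group were LINC542, LINC6430, LINC5208 and LINC3933 in LOW, LINC2494 in CON and LINC8871 in HIGH. The genes of LINC542, LINC5208, LINC2494 and LINC8871 hold other transcripts and were above 0 in every library of that group. For LINC8871 the gene had 1.89, 2.08 and 1.86 FPKM in HIGH. LINC6430 has no other transcript in its gene. LINC3933, 56.9 kb from the kinase gene JAK2, had 0.328, 0.164 and 0 FPKM in CON and 0.772, 0.414 and 0.500 in HIGH, and is the single transcript of its gene. LINC5208, 184 kb from DLG5, had 0.862, 0.479 and 0 in CON and 1.24, 0.875 and 0.691 in HIGH. DLG5 had 11.7, 7.61 and 3.97 FPKM in HIGH and 1.94 to 4.44 in CON and LOW, with overlap. LINC542, 130 kb from FCGR1A, had 0.224, 1.03 and 1.54 in CON and 0.339, 0 and 0 in HIGH. LINC6430, 308 kb from CHCHD3, had 1.30, 0.739 and 0.134 in CON and 1.03, 0 and 0 in HIGH. LINC2494, 20.9 kb from ARL15, had 0.558, 0.0176 and 0.824 in LOW, and LINC8871, on a scaffold, had 0.547, 0.467 and 0.284 in CON.

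Detection in all 3 libraries of a single group with 0 in the other 6 was seen for 5 members in CON, 4 in LOW and 4 in HIGH (0.0531%, 0.0425% and 0.0425% of detected members, against 0.0686%, 0.0267% and 0.0572% of all detected transcripts). Named after their values were seen, these were LINC3483, LINC4207, LINC7518, LINC1420 and LINC1916 for CON, LINC6176, LINC6633, LINC2849 and LINC8105 for LOW, and LINC4157, LINC6076, LINC7260 and LINC8785 for HIGH. Their highest value was 0.872 FPKM, that of LINC4157. LINC6076, 97.6 kb from AMIGO2, had the most even values, with 0.201, 0.149 and 0.213 in HIGH.

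Members near genes of known GC function were examined next. Of 20 such genes 15 were in the table, and 23 members lay within 100 kb of them, of which 18 were tested. None passed the limma test after adjustment. At an unadjusted p below 0.05 by limma, 2 were higher in LOW than in CON (against 1.45% of all transcripts). None differed between CON and HIGH (against 6.09%), and 3 were lower in HIGH than in LOW (against 2.3%). Named after their values were seen, the first were LINC7728 and LINC3978, and the others LINC7728, LINC3978 and LINC7059. LINC7728 entered the test only through LOW, so its p supports nothing in either count. Over the 18 tested members the median log2 changes were 0.30 from CON to LOW, 0.25 from CON to HIGH and 0.12 from LOW to HIGH. Over all transcripts they were 0.03, 0.12 and 0.07.

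BMPR1B, the BMP receptor in which a mutation raises ovulation rate in sheep, had 5 such members, 3 of them with a mean FPKM above 1. LINC7247, 70.0 kb away, had 3.32, 1.53 and 0.605 FPKM in CON, 2.69, 1.74 and 2.23 in LOW, and 0.681, 3.15 and 0.351 in HIGH. LINC7248, 94.8 kb away in the same gene, had 2.42, 1.36 and 0.329 in CON, 1.61, 1.23 and 1.33 in LOW, and 2.52, 1.98 and 1.26 in HIGH. LINC7249, 83.8 kb away, had 1.61, 1.09 and 0.205 in CON, 1.32, 0.956 and 0.943 in LOW, and 1.65, 1.32 and 0.941 in HIGH. CON replicate 3 was the lowest of all libraries for LINC7248 and LINC7249, and groups overlapped for all 3 members (limma adjusted p of 0.753 or more). BMPR1B itself had 48.9, 39.2 and 32.7 FPKM in CON, 40.2, 36.7 and 35.8 in LOW, and 37.5, 38.0 and 27.9 in HIGH.

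Near 10 genes that respond to glucose or its lack, 11 members were found, of which 9 were tested. None differed between CON and LOW or LOW and HIGH at an unadjusted p below 0.05 by limma, against 2.78% and 6.62% of all transcripts. Only 1 was higher in HIGH than in CON, against 3.74% of all transcripts. This was LINC5784, with a log2 change of 1.27 and a limma adjusted p of 0.760. LINC6502, 76.2 kb from ASNS, which makes asparagine and is induced when amino acids or glucose run short, was the member there with a mean FPKM above 1. It had 2.26, 1.22 and 1.27 FPKM in CON, 1.47, 0.588 and 1.41 in LOW, and 1.45, 0.962 and 1.51 in HIGH, with overlapping groups, and lies only 5.09 kb from C1GALT1, a glycosyltransferase gene.

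Near 12 genes of apoptosis, 17 members were found, of which 13 were tested, and none had an unadjusted p below 0.05 by limma in any comparison, against 2.78%, 6.09% and 6.62% of all transcripts. LINC169, 51.9 kb from BCL9, which encodes a coactivator of Wnt signalling, had 3.89, 1.70 and 0.461 FPKM in CON, 2.56, 1.41 and 1.73 in LOW, and 3.67, 2.43 and 1.88 in HIGH. Its log2 change from CON to HIGH was 0.80 (SE 0.61; limma adjusted p = 0.760). BCL9 had 14.4, 8.85 and 4.71 FPKM in CON, 8.72, 8.07 and 6.80 in LOW, and 19.7, 15.8 and 10.3 in HIGH. LINC169 and BCL9 both had their lowest value in CON replicate 3.

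The extremes of size and isoform number were also examined. The longest member, LINC5329, spans 584095 bases, 1217 kb from the teneurin gene TENM3, and was detected only in CON replicate 1 (0.0200 FPKM) and LOW replicate 2 (0.281). The shortest, LINC3549, spans 237 bases and was detected in 4 libraries at 0.0248 to 0.607. The gene with the most members, XLOC_051420 on chromosome 13, held 23 members 113 kb or more from THBD, the thrombomodulin gene. Its members summed to 21.3, 18.1 and 19.1 FPKM in CON, 17.5, 15.9 and 15.4 in LOW, and 18.1, 20.6 and 17.5 in HIGH, and LINC1886, picked out after its values were seen, held much of this with 5.34 to 10.9. With 19.5 ± 1.63, 16.3 ± 1.07 and 18.7 ± 1.64 FPKM (SD, n = 3), HIGH overlapped both other groups, while every LOW library lay below every CON library.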

How the data were processed

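RNA was depleted of ribosomal RNA and sequenced as paired ends. The authors used HISAT2 for alignment and StringTie for assembly, took out candidates with coding potential, and deposited FPKM values. The submitters' processing notes also name TopHat, TopHat2, STAR 2.5.1b and HTSeq 0.6.0, and the genome build is not given in the sources used here. A table of estimated counts was also deposited. Checked against FPKM, every value checked (members with a count of 200 or more, 1419 to 3624 per library) equals FPKM times genomic span times a library factor within 3%, so the table was used only for depth and for DESeq2.

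Libraries were scaled to a common median over transcripts at FPKM of 1 or more in all libraries, after Ensembl genes without a symbol, which carry another library factor, were brought to the same one. Transcripts with FPKM of 0.1 or more in 3 libraries and a span of 300 bases or more entered limma (3.58.1, R 4.3.3) with a trend, on log2(FPKM + 0.1), with 3 groups in 1 model and Benjamini-Hochberg adjustment over all. Fold changes on this scale understate those of low transcripts. The procedure was tested on simulated data in which only transcripts with a mean FPKM of 1 or more were changed. That run does not cover the low levels and the replicate spread of most members. Single values per library were compared by exact permutation. Distances to named genes were taken from the annotated transcripts of genes with a symbol in the deposited table. DESeq2 was version 1.42.0, and Python 3.11.15 was used for the rest.

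The members and gene lists were chosen with earlier results of these data known. Named members were the 10 with the highest mean FPKM and members at a mean FPKM of 1 within 100 kb of a listed gene. Per comparison and direction, the 3 with the smallest p among those whose groups do not overlap were added. Per comparison, the 2 with the highest mean among those at 0 in 1 whole group were added. The longest, the shortest and the gene with the most members were named too. The study's own lncRNAs, among them the intergenic lncGDAR, are not described here. Sequences are not shown, since no genome of this build was used here.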

Additional observations from a re-analysis of the deposited data

How the results depend on the processing

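Direction and side of the threshold held under every alternative for the comparisons of members with antisense, sense-overlapping and mRNA transcripts and of near with far members, but the near and far difference (0.35 to 0.48 over leave-one-out fits) was 0.0875 with 1 added in place of 0.1, and that to mRNA (-2.35 to -2.23) was -0.93, and to sense-overlapping lncRNAs -0.20. For the median level and the number detected p stayed above 0.05, while the order of the groups changed with the library left out and without scaling. The range of group means of the share was 7.75 to 25.4 percentage points. Members that passed were 0 by the choice of members. Without a filter, LINC4052 and LINC6076 passed for CON and HIGH (0.0214%, against 0.0358% of all transcripts) and for LOW and HIGH (0.0214%, against 0.0278%). With the groups LOW and HIGH alone, 4 passed for that comparison (0.0551%, against 0.0599%). These were LINC5645, LINC6197, LINC4875 and LINC5191, named after their values were seen. By DESeq2 153, 110 and 205 passed (2.11%, 1.51% and 2.82%, against 1.62%, 1.63% and 2.31% of all transcripts). Leaving out 1 library gave 0 to 1, 0 to 2 and 0 to 2. The highest share was 0.0295%, without CON replicate 1, against 0.0484% of all transcripts for CON and HIGH and 0.0564% for LOW and HIGH. Summing the transcripts of a gene was an alternative added after seeing the data. There 1 member gene passed for CON and LOW, and the same gene for CON and HIGH. It holds the omitted LINC2820, and was 0.0166% of member genes tested in each, against 0.00429% and 0.00858% of all genes. Members at an unadjusted p below 0.05 were 181, 307 and 400. With FPKM of 1 or more in 3 libraries they were 11, 34 and 38 of 926 tested. These were 1.19%, 3.67% and 4.1%, against 2.16%, 6.94% and 7.57% of all transcripts. For CON and LOW they were 273 without a filter (2.92%, against 3.04%) and 387 by DESeq2 (5.33%, against 5.56%). For LOW and HIGH DESeq2 gave 608 (8.37%, against 11%). The counts ran from 167 to 286, 214 to 1340 and 279 to 670 with 1 library left out. The lowest were 2.36%, 3.01% and 3.95% of members tested, against 2.43%, 4.54% and 4.44% of all transcripts in the same fits. The highest were 4.03%, 19.8% and 9.53%, against 4.1%, 17.4% and 11.9%. With the replicate number as a block the counts were 526 for CON and HIGH (7.24%, against 10.5%) and 649 for LOW and HIGH (8.94%, against 11.4%). Same-numbered libraries of different groups had correlated deviations of 0.0745 to 0.254 for numbers 1 and 3, and of -0.00678 to 0.00403 for number 2. Libraries of different numbers had -0.258 to 0.0580. No label says what the numbers share, and the cause of these correlations was not tested. The main fit did not use the numbers. The block changed no other call. The direction of named members is fixed by how they were chosen. LINC4052 and LINC4157 without a HIGH library, LINC7728 without a LOW one and LINC7005 without a CON one could not be tested, since fewer than 3 libraries then reach 0.1 FPKM. The cause of these changes was not tested. Depth limits members near 0.1 FPKM, which rest on few fragments per kilobase.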
